A study of Mus musculus with 19 samples.

Results

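The comparison described here asks whether the genotype effect on RNA levels in cultured mouse muscle cells differed between fused and differentiated myotubes. It is the KO-labelled to WT difference in fused myotubes at 72 h minus the same difference in differentiated myotubes at 48 h. It rests on 13 of the study's 19 libraries, chosen by their titles: 3 WT and 2 KO-labelled libraries at 48 h, and 4 WT and 4 KO-labelled libraries at 72 h. The other 6 libraries, of dividing myoblasts at 24 h, entered the fit so that all groups share 1 estimate of the spread. All cells were primary hind-limb myoblasts, taken in culture to the end of the differentiation step or the end of the fusion step. The genotype labels are wild type (WT) and Glud1 deficient, the latter written here as KO-labelled. The labels give no allele, Cre driver, age, sex or treatment. They do not say whether replicates were separate animals or cultures, so p-values measure the spread between these libraries, which may be technical. In the names of the deposited data both genotypes carry KO, the KO-labelled ones followed by a T of unstated meaning. The labels were followed.

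Glud1 encodes glutamate dehydrogenase, a mitochondrial enzyme that converts glutamate to alpha-ketoglutarate and so links amino acids to the citric acid cycle. In muscle formation, precursors marked by PAX7 leave the cell cycle, pass under the control of MYOD1 and myogenin, and build contractile and calcium-release proteins. The membrane proteins myomaker and myomixer then bring about fusion into multinucleate myotubes, while genes of dividing cells and much of the matrix programme are turned down.

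For each gene, the genotype effect at a stage is the log2 ratio of KO-labelled to WT. The stage difference is the effect at 72 h minus the effect at 48 h, which is the same quantity as the 48 h to 72 h change in KO-labelled libraries minus that in WT libraries. A positive value means that the KO-labelled level, relative to WT, was higher at 72 h than at 48 h. Levels are given as CPM, a gene's share of its library's counts after scaling between libraries by the TMM method, and are comparable between libraries, not between genes of different length.

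The genotype effect was smaller at fusion than at the end of differentiation in 1792 of the 2238 genes in which the 2 effects differed. These genes were chosen by that difference, so the count is a description. Over all genes tested the median absolute effect was also larger at 48 h, 0.17 against 0.11 at 72 h. At 48 h 14.1% of all genes were lower in KO-labelled cells and 11% higher. Positive stage differences were found for 13 of 21 matrix genes and 8 of 20 mitosis genes, lists with 14 and 17 members lower in KO-labelled cells at 48 h. Negative ones were found for 10 of 30 sarcomere genes and 7 of 21 calcium-handling genes, lists with 14 and 12 members higher at 48 h, or 7 and 6 without KO-labelled differentiated replicate 2. They were also found for all 6 tested members of a cluster of guanylate-binding protein genes, which lay further below WT at 72 h than at 48 h. Of 15123 genes tested, 2238 (14.8%) were called in the stage difference, at an adjusted p under 0.05 in the quasi-likelihood test of edgeR, with p-values adjusted by the Benjamini-Hochberg method. The calls were 1251 higher (8.27%) and 987 lower (6.53%), and 323 of them differed by at least 2-fold, 271 higher and 52 lower. Scaling by library size alone gave 1663 higher and 554 lower, so the split between directions depends on the scaling. An offset for the deposited effective lengths left 981 calls, of which 903 were among the 2238. The cause of that loss was not tested.

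The calls were mostly genes with a genotype effect at 48 h. At that stage 3810 genes (25.2%) were called between genotypes, 1671 higher (11%) and 2139 lower (14.1%) than in WT, or 1039 higher and 2812 lower with library size alone. At 72 h 1972 genes (13%) were called, 956 higher (6.32%) and 1016 lower (6.72%). Over the 2238 genes the median absolute effect was 0.33 at 48 h and 0.11 at 72 h, against 0.17 and 0.11 over all genes tested. These comparisons share libraries with the stage difference, so the way its calls divide among them is a description. The 1410 genes (63.0%) called at 48 h and not at 72 h included 808 that were lower at 48 h, with median effects of -0.51 at 48 h and 0.03 at 72 h, and 602 that were higher, with medians of 0.28 and -0.02. Genes called at 72 h and not at 48 h numbered 346, of which 165 were higher and 181 lower at 72 h. In 168 genes both stages were called in opposite directions, 123 lower then higher and 45 higher then lower. Only 13 genes were lower at both stages and more so at 72 h, with medians of -0.84 and -2.33, and 3 were higher at both and more so at 72 h.

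**Figure D1:**
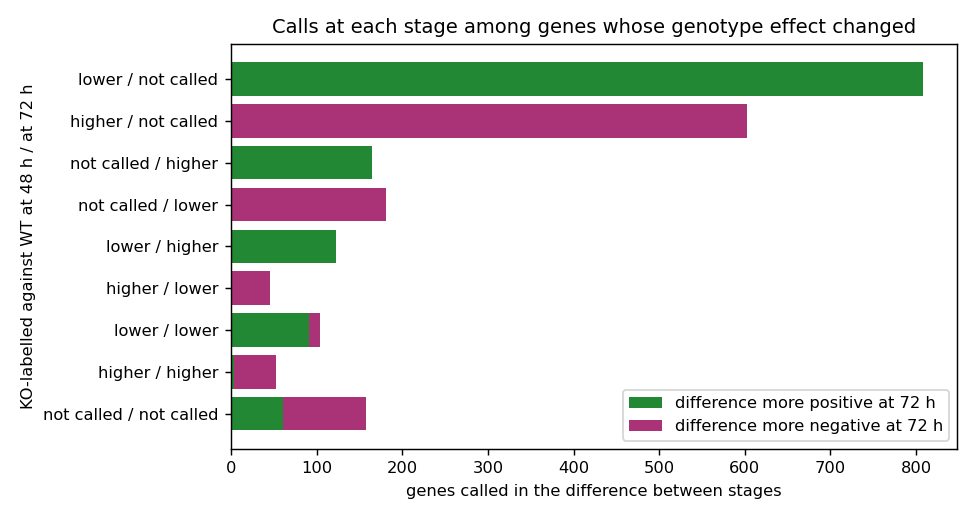
Number of genes called in the stage difference (x axis) by the call between genotypes at 48 h and at 72 h (y axis), coloured by the direction of the stage difference. The longest bars are the 808 genes lower and the 602 genes higher at 48 h with no call at 72 h.

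**Figure D2:**
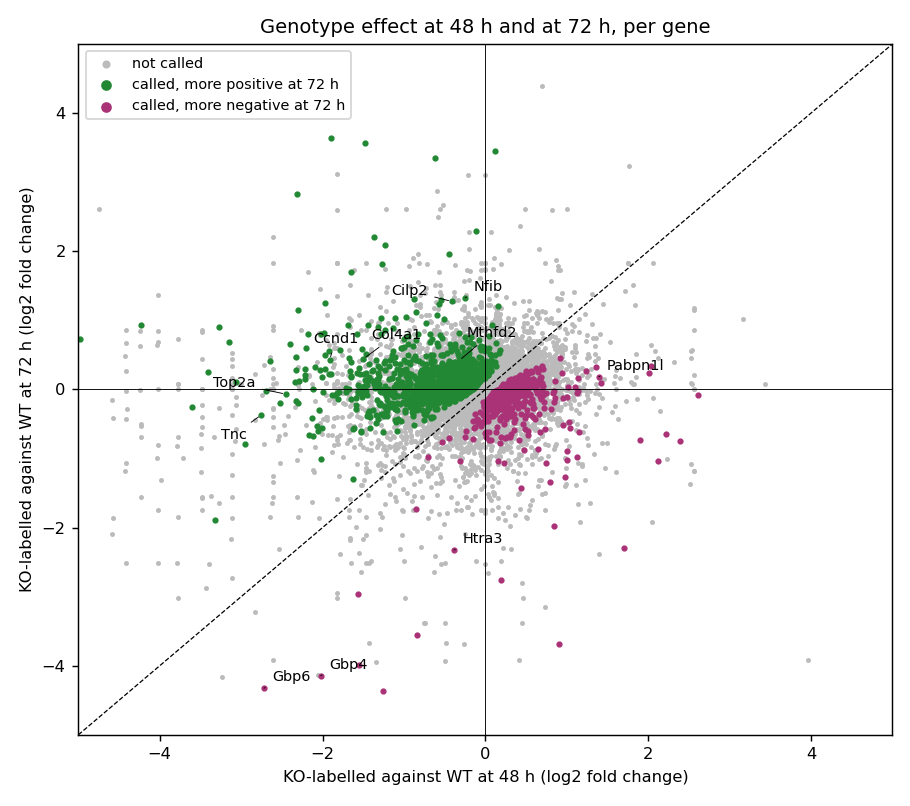
Log2 fold change of KO-labelled against WT at 48 h (x axis) and at 72 h (y axis), 1 point per gene, with the dashed line marking equal effects and colour marking the calls in the stage difference. Of the 2238 called genes, 1792 lie closer to the horizontal zero line than to the vertical one, whereas Gbp6, Gbp4 and Htra3 lie far below the dashed line; 32 genes fall outside the axes.

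Seen as a change over time, both genotypes moved far between 48 h and 72 h. In WT libraries 11357 genes (75.1%) were called between these stages, 37.4% higher and 37.7% lower, and in KO-labelled libraries 10616 (70.2%), 35.8% higher and 34.4% lower. Among genes with a positive stage difference, 376 fell in both genotypes, with median log2 changes of -1.23 in WT and -0.71 in KO-labelled libraries, and 356 rose in both, with medians of 0.64 and 1.19. Among genes with a negative stage difference, 335 rose in both, with medians of 0.82 and 0.53, and 309 fell in both, with medians of -0.56 and -0.90. Opposite changes were called for 89 genes that fell in WT and rose in KO-labelled libraries and for 41 that rose in WT and fell in KO-labelled libraries.

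Glud1 RNA itself did not separate the labels at either stage. The libraries held 112, 102 and 104 CPM in WT and 103 and 96.6 CPM in KO-labelled cells at 48 h, and 133, 141, 136 and 131 CPM in WT and 132, 131, 139 and 130.2 CPM in KO-labelled cells at 72 h. The ranges overlapped at both stages. Its stage difference was 0.06 (SE 0.059, edgeR adjusted p = 0.537). The labels do not say which part of the gene was changed, and a change that leaves the transcript in place would not show in its level, so these values check neither the labels nor the loss of the protein.

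Of the 10 muscle stage markers tested, 2 had a positive and 2 a negative stage difference, beside 8.27% and 6.53% of all genes. Pax7, the transcription factor of muscle precursors, had 10.2, 10.4 and 11.3 CPM in WT and 5.08 and 6.19 CPM in KO-labelled libraries at 48 h, and 2.80 to 4.19 CPM in WT and 2.13 to 4.28 CPM in KO-labelled libraries at 72 h. Its groups were apart at 48 h and overlapped at 72 h, with a stage difference of 0.72 (SE 0.21, edgeR adjusted p = 0.0205), lost under the length offset, with the 13 libraries alone, and without WT fused replicate 4, KO-labelled differentiated replicate 1 or KO-labelled fused replicate 2. Myod1, the myogenic regulator, had 869, 769.8 and 804 CPM in WT and 645 and 668 CPM in KO-labelled libraries at 48 h. At 72 h its values ran from 284 to 311 CPM in WT and from 306 to 349 CPM in KO-labelled libraries, so that the deficit at 48 h was not seen there (stage difference 0.42, SE 0.072, edgeR adjusted p = 0.000188).

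Both fusion proteins had the opposite course. Mymx, which encodes myomixer, had 71.8, 72.1 and 69.8 CPM in WT and 119 and 108 CPM in KO-labelled libraries at 48 h, and 24.4 to 32.4 CPM in WT and 29.2 to 31.8 CPM in KO-labelled libraries at 72 h. KO-labelled libraries were above every WT library at 48 h and inside the WT range at 72 h (stage difference -0.54, SE 0.099, edgeR adjusted p = 0.000365). Mymk, which encodes myomaker, held 1659.5, 1754 and 1828 CPM in WT and 1999 and 2229 CPM in KO-labelled libraries at 48 h, and its groups overlapped at 72 h. Its stage difference of -0.28 (SE 0.078, edgeR adjusted p = 0.0142) was lost without KO-labelled differentiated replicate 2 and under the length offset. No call was made for Myog, the gene of myogenin (0.00, SE 0.091, edgeR adjusted p = 1), nor for Myf5, Myf6, Myh3, Ckm or Mki67. For Mki67, the gene of a protein of dividing nuclei, the groups held 4.09 to 5.07 CPM in WT and 0.588 and 0.996 CPM in KO-labelled libraries at 48 h, but every library of 72 h held at most 6 counts.

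Of 26 collagens and other matrix genes 21 were tested, and 13 of them (61.9%) had a positive stage difference, none a negative one and 8 no call, beside 8.27% and 6.53% of all genes. The median over the 21 was 1.11, against -0.00 over all genes tested. The count of higher members ran from 10 to 13 over the alternatives. At 48 h 14 were lower in KO-labelled libraries and none higher (median -1.31), beside 14.1% and 11% of all genes. At 72 h 5 were higher and 2 lower (median -0.31), beside 6.32% and 6.72% of all genes. A bulk library cannot tell fewer cells of a type from less RNA per cell.

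Col4a1, a basement membrane collagen chain (chr8:11198423-11312826 in GRCm38, minus strand), held 142, 139 and 172 CPM in WT and 49.0 and 57.6 CPM in KO-labelled libraries at 48 h. At 72 h it held 16.4, 15.9, 16.0 and 15.4 CPM in WT and 21.0, 22.5, 21.2 and 21.4 CPM in KO-labelled libraries. The KO-labelled libraries were thus below every WT library at 48 h and above every one at 72 h (effects -1.50 and 0.44), with a stage difference of 1.94 (SE 0.11, edgeR adjusted p = 2.31e-12). Its partner chain Col4a2 lies beside it on the opposite strand (chr8:11312805-11449287). The 2 spans overlap only at their starts, so few reads could be shared. Col4a2 held 78.1 to 101 CPM in WT and 36.6 and 42.4 CPM in KO-labelled libraries at 48 h. At 72 h it held 22.0 to 23.7 CPM in WT and 31.8 to 34.6 CPM in KO-labelled libraries. Its stage difference was 1.69 (SE 0.11, edgeR adjusted p = 7.21e-11).

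Tnc, which encodes the matrix glycoprotein tenascin C (chr4:63959785-64047015, minus strand), was the member with the largest stage difference. Its levels were 11.6, 10.01 and 12.04 CPM in WT and 1.34 and 1.99 CPM in KO-labelled libraries at 48 h, and 1.69, 1.46, 2.22 and 1.44 CPM in WT and 1.19, 1.45, 1.15 and 1.47 CPM in KO-labelled libraries at 72 h. The groups were far apart at 48 h (effect -2.75) and overlapped at 72 h (effect -0.37, edgeR adjusted p = 0.347), which gave a stage difference of 2.38 (SE 0.32, edgeR adjusted p = 8.34e-06). Fn1, the gene of fibronectin, had 71.9, 66.0 and 84.2 CPM against 15.4 and 18.4 CPM at 48 h, and 6.73 to 9.89 CPM against 5.13 to 8.59 CPM at 72 h (stage difference 1.73, SE 0.20, edgeR adjusted p = 1.32e-06). Lox, a collagen cross-linking enzyme, gave 1.85 (SE 0.15, edgeR adjusted p = 1.87e-09). Timp1, an inhibitor of matrix proteases, gave 1.27 (SE 0.13, edgeR adjusted p = 1.81e-07). Col3a1, a fibrillar collagen, gave 1.11 (SE 0.16, edgeR adjusted p = 1.98e-05).

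Markers of other cell types were read beside this list. The 5 smooth muscle and pericyte markers summed to 2496 to 2728 CPM in WT and 1811 to 1967 CPM in KO-labelled libraries at 48 h, and to 431 to 485 CPM and 464 to 502 CPM at 72 h. Of their 4 tested members, Acta2, an actin also made by myoblasts, was higher in the stage difference (0.51, SE 0.073, edgeR adjusted p = 1.75e-05), as was Cspg4, a pericyte proteoglycan (1.27, SE 0.42, edgeR adjusted p = 0.0403). DESeq2 called Acta2 alone of the 4. The call of Cspg4 was also lost under the length offset and without either KO-labelled library of 48 h, among other alternatives. The 10 fibro-adipogenic markers, of which Dpt, Lum and Cxcl14 never passed 3 counts, lay the opposite way at 48 h, with 58.9 to 61.9 CPM in WT and 86.6 to 90.8 CPM in KO-labelled libraries, and summed to 31.5 to 33.2 CPM and 36.6 to 38.3 CPM at 72 h. Dpep1 was the 1 member of that list called, with a negative stage difference (-0.40). Tenocyte markers summed to 129 to 145 CPM in WT and 136 to 158 CPM in KO-labelled libraries at 48 h and to 71.4 to 84.6 CPM and 79.8 to 98.4 CPM at 72 h, with Tnmd and Thbs4 at 3 counts or fewer. Endothelial markers summed to at most 6.78 CPM, and macrophage, Schwann cell and adipocyte markers to at most 2.79 CPM. Neither edgeR nor DESeq2 called any of the 9 tested members of these last 5 lists, 1 of which had an unadjusted p under 0.05 in edgeR. The muscle markers summed to 5816 to 6789 CPM over all 13 libraries. The part of other cells in the matrix result was not tested.

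**Figure D3:**
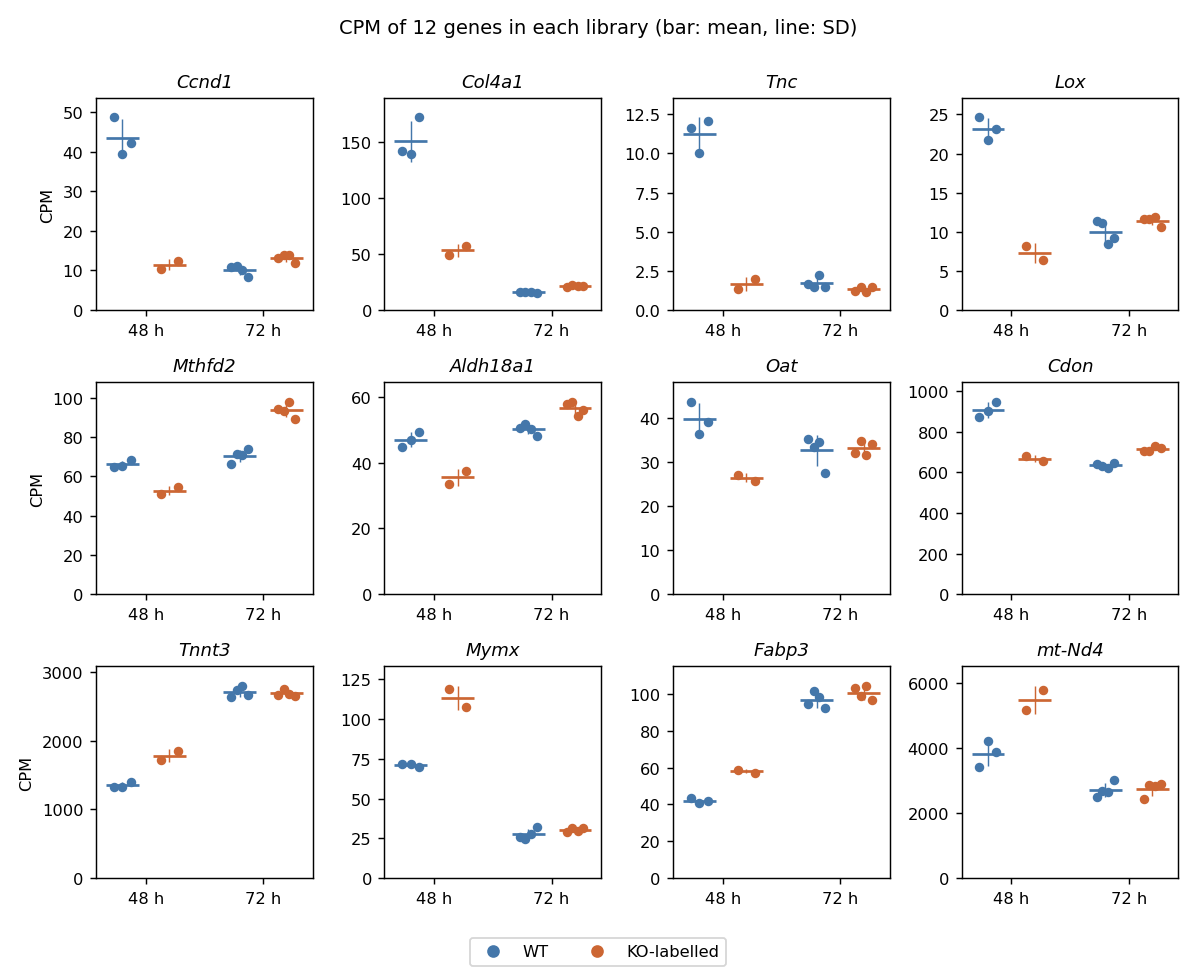
CPM of 12 genes in each library (points), with the mean (bar) and SD (line) for WT and KO-labelled libraries at 48 h and 72 h on axes that start at 0. In the upper row the 48 h groups are apart and lie closer together at 72 h. For Col4a1 the 48 h values are 142, 139 and 172 CPM in WT against 49.0 and 57.6 CPM. Ccnd1, Col4a1, Mthfd2, Aldh18a1 and Cdon change order between stages.

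Among the 16 genes named for the size of their stage difference, 8 were positive. Ccnd1, the gene of cyclin D1, which carries cells into the cell cycle (chr7:144929931-144939925, minus strand), had 48.6, 39.4 and 42.3 CPM in WT and 10.5 and 12.5 CPM in KO-labelled libraries at 48 h, and 10.9, 11.04, 9.99 and 8.24 CPM in WT and 13.2, 13.8, 14.0 and 11.9 CPM in KO-labelled libraries at 72 h. The groups were apart at both stages and changed order (effects -1.91 and 0.42), and the stage difference was 2.34 (SE 0.14, edgeR adjusted p = 5.97e-12). Fstl1, which encodes a secreted follistatin-like protein, had 29.0, 22.7 and 27.5 CPM against 4.60 and 4.56 CPM at 48 h and fell under 1 CPM in both genotypes at 72 h, where the groups overlapped (2.33, SE 0.32, edgeR adjusted p = 1.12e-05).

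Cxcl12, a chemokine, gave the largest positive value of the 8. It held 7.68, 4.79 and 6.65 CPM in WT and 0.856 and 1.94 CPM in KO-labelled libraries at 48 h, but 1 to 9 counts per library at 72 h, so its 2.98 (SE 0.65, edgeR adjusted p = 0.00232) rests on few counts at that stage. Stmn2, a regulator of microtubules, had 4.26 to 6.45 CPM in WT against 0.891 and 1.12 CPM in KO-labelled libraries at 48 h and overlapping levels under 1 CPM at 72 h (2.61, SE 0.43, edgeR adjusted p = 0.000108). Tpbg, a membrane glycoprotein, rose over time in both genotypes, from 2.89, 2.09 and 2.499 CPM in WT and 0.695 and 0.367 CPM in KO-labelled libraries to 4.24 to 5.75 CPM and 5.46 to 6.52 CPM (2.52, SE 0.29, edgeR adjusted p = 9.98e-07). Rnf150, which encodes a RING finger protein, held only 1 to 6 counts in the KO-labelled libraries at 48 h. Its stage difference of 2.31 (SE 0.59, edgeR adjusted p = 0.00819) was lost without KO-labelled differentiated replicate 1 (edgeR adjusted p = 0.135). Tnc, above, and Top2a, which encodes a DNA topoisomerase of dividing cells, complete the 8.

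The promoters of 2 of the 16 genes are shown, 1 with a positive and 1 with a negative stage difference, because the E-box CANNTG, where N is any base, is the motif that MYOD1, myogenin and related factors bind. Each run is the 240 bases before the gene's start from RefSeq (GRCm38.p6), 5′ to 3′ on the gene's own strand, with every E-box in capitals. Top2a lies on the minus strand and its stretch is chr11:99024190-99024429. Htra3, a secreted serine protease also on the minus strand, has the stretch chr5:35679783-35680022.
Top2a: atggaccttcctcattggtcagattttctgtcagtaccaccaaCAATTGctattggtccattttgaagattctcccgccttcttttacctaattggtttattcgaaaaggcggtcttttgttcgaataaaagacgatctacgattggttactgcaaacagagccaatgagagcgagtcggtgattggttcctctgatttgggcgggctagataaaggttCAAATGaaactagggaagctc
Htra3: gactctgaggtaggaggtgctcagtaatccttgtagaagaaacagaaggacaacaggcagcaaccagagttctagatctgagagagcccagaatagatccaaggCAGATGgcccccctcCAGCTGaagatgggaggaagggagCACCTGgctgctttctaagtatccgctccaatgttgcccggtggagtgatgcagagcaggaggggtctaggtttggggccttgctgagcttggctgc
The stretches hold 2 and 3 E-boxes. RefSeq windows of 300 bases, 250 before and 50 after the start, were at hand for 8 of the 16 genes, and an E-box on either strand (the motif reads the same on both) stood in those of 5: Top2a, Tnc, Htra3, Pabpn1l and Lime1. No window of Cxcl12, Tpbg or Fstl1 held it. Over all 32851 windows 72.3% held at least 1, so a match is a description and says nothing about binding.

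Of 20 mitosis genes tested, 8 (40.0%, against 8.27% of all genes) had a positive stage difference and none a negative one, with a median of 0.95. The 8 were Cdk1, Bub1b, Top2a, Kif11, Kif20a, Ube2c, Cenpa and Cenpf, which act in chromosome segregation and entry into division. At 48 h 17 of the 20 were lower in KO-labelled libraries (median -1.44), beside 14.1% of all genes. At 72 h 1 was higher and none lower (median -0.37), beside 6.32% and 6.72% of all genes. Top2a had 7.64, 6.10 and 8.66 CPM in WT and 1.60 and 1.15 CPM in KO-labelled libraries at 48 h, and at most 0.666 CPM in all 8 libraries at 72 h, where the groups overlapped. Its stage difference was 2.38 (SE 0.47, edgeR adjusted p = 0.000832). Top2a held 2 to 12 counts per library at 72 h and Mki67 at most 6, so a missing call there says little. The count of 8 became 4 with the 13 libraries alone, under the length offset or without KO-labelled differentiated replicate 1. It became 5 without KO-labelled differentiated replicate 2, or without KO-labelled fused replicate 1 or 3. Cdk1 lost its call under 12 of 22 alternatives and Ube2c under 5. Ube2c overlaps the troponin gene Tnnc2 on the other strand, and its reads may be shared. Ube2c was the 1 member higher at 72 h (effect 0.68), and under the length offset none was higher there and 1 lower. Of 24 S phase genes, 4 were higher (Mcm3, Mcm4, Mcm5 and Rrm2, of DNA replication and nucleotide supply) and 1 lower (E2f2, a cell cycle transcription factor), together 20.8% against 14.8% of all genes, with a median of 0.13 that turned to -0.08 under the length offset and was 0.00 without KO-labelled differentiated replicate 2 and 0.05 without WT differentiated replicate 3. Mcm4 lost its call under 9 of 22 alternatives and E2f2 under 6. Only 1 or 2 were higher with no count filter, with the 13 libraries alone, under the length offset, or without WT differentiated replicate 1 or 3, WT fused replicate 1 or 4, KO-labelled differentiated replicate 1 or 2, or KO-labelled fused replicate 2 or 4. Of 17 CDK inhibitors and p53 targets, 2 were higher and none lower (11.8%). Over all genes 14.8% were called in either direction and 8.27% were higher. The 2 were Trp53inp1 and Gadd45a, both stress-response genes. Gadd45a lost its call under 14 of 22 alternatives.

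Of the 8 genes named for large negative stage differences, 5 (Gbp8, Gbp10, Gbp4, Gbp6 and Gbp9) lay in a cluster of guanylate-binding protein genes, which encode large GTPases, on chromosome 5 (chr5:105014150-105346472, GRCm38). All 6 tested members were called, were lower in KO-labelled libraries at both stages, and had a median stage difference of -2.27, with medians of -1.56 at 48 h and -4.06 at 72 h. The calls of the 6 held in all 22 alternatives. Summed over the 6 genes, the level was 483, 493 and 483 CPM in WT (mean 486.6, SD 6.0, n = 3) and 118 and 124 CPM in KO-labelled libraries (mean 120.8, SD 4.36, n = 2) at 48 h. At 72 h it was 1149, 1169.6, 1111 and 1208 CPM in WT (mean 1159, SD 40.3, n = 4) and 79.2, 82.2, 83.1 and 79.7 CPM in KO-labelled libraries (mean 81.1, SD 1.91, n = 4). The WT sum was higher at 72 h than at 48 h and the KO-labelled sum lower, so WT stood 4.03-fold above KO-labelled at 48 h and 14.3-fold at 72 h, with no overlap at either stage.

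In WT libraries Gbp6 had the highest CPM of the tested members at both stages. In KO-labelled libraries at 48 h Gbp9 was above it. CPM is not comparable between genes of different length, so this order describes counts only. Gbp6 had 230.2, 225 and 227 CPM in WT and 31.2 and 37.7 CPM in KO-labelled libraries at 48 h. At 72 h Gbp6 had 783, 803, 751 and 794 CPM in WT and 39.2, 39.4, 40.8 and 36.6 CPM in KO-labelled libraries. From 48 h to 72 h it rose by 1.78 in WT and by 0.18 in KO-labelled libraries on the log2 scale (stage difference -1.60, SE 0.090, edgeR adjusted p = 2.55e-12). Gbp9 rose in WT, from 157, 169 and 162 CPM to 266 to 306 CPM, and fell in KO-labelled libraries, from 55.5 and 54.3 CPM to 34.6 to 37.5 CPM (-1.39, SE 0.074, edgeR adjusted p = 2.31e-12). Gbp4 fell in both genotypes, from 57.0 to 57.9 CPM to 36.2 to 45.7 CPM in WT and from 14.1 and 14.2 CPM to 1.86 to 2.47 CPM in KO-labelled libraries (-2.12, SE 0.15, edgeR adjusted p = 2.24e-10). Gbp10 gave -2.43 (SE 0.18, edgeR adjusted p = 7.35e-10) and Gbp8 -2.71 (SE 0.21, edgeR adjusted p = 9e-10). Gbp11 held 0.863 to 1.94 CPM in WT and 0 to 0.111 CPM in KO-labelled libraries at 72 h, too few counts for its fitted -3.11 to be read as a size. These genes are close paralogs, and Gbp4, Gbp8 and Gbp9 overlap each other in the annotation. Gm43302, outside the sum, overlaps Gbp6 and Gbp10 on their strand. Its means were 4.93 CPM for WT and 0.026 CPM for KO-labelled at 48 h and 7.53 and 2.32 CPM at 72 h, and its stage difference was not called (edgeR adjusted p = 0.230). The division of reads among these genes is therefore uncertain.

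Genes around the cluster were read in the same way. Of 15 further genes tested within 1000 kb, 3 were called in the stage difference, beside 14.8% of all genes. They were Hsd17b11 (2.47, at under 1 CPM in each group), BC005561 (-0.62) and D930016D06Rik (-0.44). Of the 15, 4 were lower in KO-labelled libraries at both stages and had no call in the stage difference: Spp1, which encodes osteopontin, Pkd2, a cation channel gene, and Lrrc8b and Lrrc8c, which encode subunits of the volume-regulated anion channel. For Lrrc8b the effects were -1.28 at 48 h and -1.17 at 72 h. Over all genes tested, 14.1% were lower in KO-labelled libraries at 48 h and 6.72% at 72 h, each stage taken alone.

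**Figure D4:**
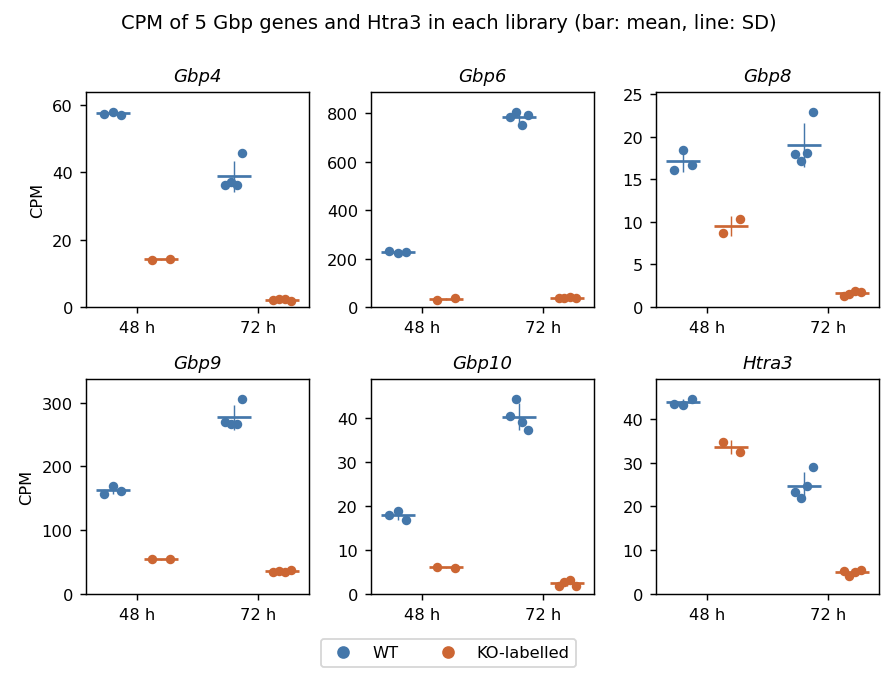
CPM of 5 guanylate-binding protein genes and Htra3 in each library (points), with the mean (bar) and SD (line) for WT and KO-labelled libraries at 48 h and 72 h on axes that start at 0. KO-labelled libraries lie below all WT libraries in every panel at both stages, and for Gbp6 they stay at 31.2 to 40.8 CPM while WT goes from 225 to 230.2 CPM to 751 to 803 CPM.

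The other 3 of the 8 negative genes differed from each other in course. Htra3, a secreted serine protease of the extracellular space (chr5:35652023-35679782, minus strand, on the chromosome of the cluster but far outside it), had 43.5, 43.2 and 44.6 CPM in WT and 34.7 and 32.4 CPM in KO-labelled libraries at 48 h, and 23.4, 22.0, 24.6 and 29.1 CPM in WT and 5.33, 4.11, 4.98 and 5.59 CPM in KO-labelled libraries at 72 h. It fell in both genotypes, and the gap between the groups went from 1.31-fold to 4.95-fold (stage difference -1.94, SE 0.12, edgeR adjusted p = 1.63e-11). Pabpn1l, a poly(A)-binding protein gene, had 5.41, 6.57 and 6.16 CPM in WT and 15.4 and 16.5 CPM in KO-labelled libraries at 48 h, and 7.21 to 9.63 CPM and 8.84 to 10.2 CPM at 72 h. Its excess at 48 h was followed by overlapping groups at 72 h (-1.21, SE 0.15, edgeR adjusted p = 2.7e-06). Lime1, an adaptor of lymphocyte signalling, gave -1.20 (SE 0.40, edgeR adjusted p = 0.0436), overlapped between genotypes at both stages and lost its call under 10 of 22 alternatives.

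Genes called in opposite directions at the 2 stages were named by the smaller of their effects. Atp2b4, a plasma membrane calcium pump, held 15.2, 12.6 and 13.3 CPM in WT and 6.74 and 6.87 CPM in KO-labelled libraries at 48 h, and 3.52, 3.81, 3.89 and 3.01 CPM in WT and 5.33, 5.06, 5.66 and 5.26 CPM in KO-labelled libraries at 72 h. The groups did not overlap at either stage and changed order, with effects of -1.01 and 0.61 and a stage difference of 1.62 (SE 0.15, edgeR adjusted p = 3.03e-08). Fbln5, an elastic fibre protein, had effects of -0.65 and 0.73 (1.38, SE 0.20, edgeR adjusted p = 1.81e-05), and Adora1, an adenosine receptor whose gene overlaps the muscle gene Mybph, had effects of -0.83 and 0.80 (1.63, SE 0.28, edgeR adjusted p = 0.000169). In the reverse order, Acacb, the acetyl-CoA carboxylase that restrains fatty acid entry into mitochondria, had 8.02, 8.79 and 9.89 CPM in WT and 13.6 and 11.2 CPM in KO-labelled libraries at 48 h, and 42.0, 36.5, 40.5 and 36.4 CPM in WT and 27.4, 29.3, 26.7 and 26.6 CPM in KO-labelled libraries at 72 h. It rose in both genotypes and more so in WT (-0.96, SE 0.13, edgeR adjusted p = 4.96e-06). Clec2d, a C-type lectin, had effects of 0.53 and -0.67 (-1.19, SE 0.23, edgeR adjusted p = 0.000524). Aknad1 had effects of 0.49 and -0.36 (-0.86, SE 0.094, edgeR adjusted p = 4.09e-07).

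Some genes had no call at 48 h and a large effect at 72 h. Nrep, a small neuronal regeneration related protein, held 3.51, 2.70 and 2.85 CPM in WT and 2.35 and 1.68 CPM in KO-labelled libraries at 48 h, and 5.16, 4.57, 6.04 and 3.63 CPM in WT and 9.47, 11.7, 12.2 and 11.3 CPM in KO-labelled libraries at 72 h. It rose in both genotypes, and all 4 KO-labelled libraries were above all 4 WT libraries at 72 h (stage difference 1.81, SE 0.25, edgeR adjusted p = 1.06e-05). Cilp2, a cartilage matrix protein, had 6.59 to 6.97 CPM in WT and 14.8 to 17.6 CPM in KO-labelled libraries at 72 h (1.68, SE 0.20, edgeR adjusted p = 1.32e-06). Nfib, a transcription factor, gave 1.58 (SE 0.23, edgeR adjusted p = 2.58e-05), but under the length offset the adjusted p was 0.541 in the same edgeR test.

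Of 14 tested Pax and Notch genes, 7 had a positive stage difference and none a negative one (median 0.31), beside 8.27% and 6.53% of all genes: Pax3 and Pax7, the ligand Dll1, the transcription factor Rbpj, and the Hes and Hey genes Hes1, Hes6 and Hey1. At 48 h 5 were lower in KO-labelled libraries and none higher (14.1% and 11% of all genes), and at 72 h 2 were higher and 2 lower (6.32% and 6.72% of all genes). Hes1, a Notch target that holds back differentiation, had 8.73, 7.88 and 8.38 CPM in WT and 4.60 and 4.35 CPM in KO-labelled libraries at 48 h, and 18.02 to 20.1 CPM in WT and 17.6 to 19.7 CPM in KO-labelled libraries at 72 h. The groups were apart at 48 h and overlapped at 72 h (0.83, SE 0.12, edgeR adjusted p = 1.25e-05). Of the 7 calls, 4 were left with the 13 libraries alone or without WT fused replicate 4, KO-labelled differentiated replicate 1 or KO-labelled fused replicate 2, and 1 under the length offset.

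Of 18 tested TGF-beta and myostatin pathway genes, 7 were higher and 1 lower (44.4%, against 14.8% of all genes, median 0.41), and the higher count ran from 5 to 8 over the alternatives. The ligand Tgfb2 had 23.6, 23.2 and 23.6 CPM in WT and 10.3 and 10.01 CPM in KO-labelled libraries at 48 h, and 58.0, 57.1, 57.2 and 59.9 CPM in WT and 45.9, 48.9, 55.3 and 44.0 CPM in KO-labelled libraries at 72 h. KO-labelled libraries were below WT at both stages and the gap narrowed from 2.32-fold to 1.20-fold (0.96, SE 0.12, edgeR adjusted p = 1.69e-06). The receptor Tgfbr2 (0.56), the antagonist follistatin, Fst (0.42), the target Id3, an inhibitor of myogenic factors (0.79), and Smad6 and Id1 were among the other higher members, and the receptor Tgfbr1 was lower (-0.24), a call lost under several alternatives, the length offset and library size alone among them. Of 16 IGF pathway genes, 4 were higher (Igfbp2, Igfbp3, Igfbp5 and Irs1) and 1, the RNA-binding protein Igf2bp2, lower (-0.32), together 31.2% against the same 14.8%. The 4 became 3 without either KO-labelled library of 48 h, and Igfbp3 was lost without replicate 1. Igfbp2, a secreted binding protein of insulin-like growth factors, had 77.3, 60.3 and 71.3 CPM in WT and 27.8 and 30.6 CPM in KO-labelled libraries at 48 h and overlapping levels of 10.6 to 14.0 CPM at 72 h (1.21, SE 0.14, edgeR adjusted p = 1.07e-06).

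Of 30 sarcomere genes, 10 (33.3%) had a negative stage difference and none a positive one (median -0.16), against 6.53% and 8.27% of all genes. At 48 h 14 were higher in KO-labelled libraries and 1 lower (median 0.19), beside 11% and 14.1% of all genes. At 72 h 5 were higher and 6 lower (median 0.02), beside 6.32% and 6.72% of all genes. Tnnt3, the fast troponin T, had 1331, 1331 and 1406 CPM in WT and 1713 and 1849 CPM in KO-labelled libraries at 48 h, and 2639.7, 2734, 2801 and 2663 CPM in WT and 2665, 2751, 2685 and 2650.1 CPM in KO-labelled libraries at 72 h. It rose in both genotypes to levels that overlapped, so the excess at 48 h was not seen at 72 h (-0.40, SE 0.070, edgeR adjusted p = 0.000203). Myom2, an M-band protein, differed: its groups overlapped at 48 h, and at 72 h it had 1955 to 2011 CPM in WT against 1465 to 1548 CPM in KO-labelled libraries (-0.49, SE 0.073, edgeR adjusted p = 2.78e-05). Myoz2, a Z-disc protein, gave -0.42, and Tnnt1, the slow troponin T, gave -0.32. The remaining called members were Actn3, Myl1, Tnni1, Tnnc1, Tnnc2 and Mybpc1. The 10 became 6 under the length offset or without KO-labelled differentiated replicate 2, and the 14 at 48 h became 7 without that replicate. Of 7 myosin heavy chains, Myh2 was higher (0.45) and Myh7b lower (-0.73), both uncertain, since Myh2 has close paralogs and Myh7b overlaps another gene. Both calls were lost under the length offset, and that of Myh2 also without WT differentiated replicate 3 or KO-labelled differentiated replicate 1.

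Calcium-handling genes couple excitation to contraction. Of 21, 7 were lower (Cacnb1, Stac3, Atp2a1, Trdn, Hrc, Clcn1 and Camk2a) and 1 was higher, Sln, the calcium pump inhibitor sarcolipin (1.06, SE 0.31, edgeR adjusted p = 0.0213), with a list median of -0.13, beside 6.53% lower and 8.27% higher over all genes. The call of Sln was lost under the length offset and without WT differentiated replicate 2, among other alternatives. At 48 h KO-labelled libraries had 12 members higher and 1 lower than WT (11% and 14.1% of all genes). Trdn, the triad protein triadin, gave -0.38 (SE 0.068, edgeR adjusted p = 0.000292), and Cacnb1, a subunit of the voltage sensor, gave -0.26 (SE 0.052, edgeR adjusted p = 0.00109). The 7 became 4 and the 12 became 6 under the length offset or without KO-labelled differentiated replicate 2, and the 12 became 7 with library size alone. Of 14 neuromuscular junction genes, 3 were higher (the agrin receptor Lrp4, Ache and Etv5) and 4 lower (Musk and the acetylcholine receptor subunits Chrnb1, Chrnd and Chrng), to be read against the same shares of all genes. Without KO-labelled differentiated replicate 1 the 3 became 1, and without KO-labelled differentiated replicate 2 the 4 became 0.

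Of 20 fusion and adhesion genes tested, 4 were higher, 3 were lower and 13 had no call (median 0.12), against 14.8% called over all genes. The higher ones were Cdon, Kirrel, the integrin Itgb1 and Vcam1, whose call was lost under the length offset and without KO-labelled differentiated replicate 2. The 3 lower ones were Mymk, Mymx and Cav3, the muscle caveolin, of which 1 was left under the length offset or without KO-labelled differentiated replicate 2. Cdon, a co-receptor that promotes myogenesis, had 874, 901 and 949.9 CPM in WT and 680.3 and 655 CPM in KO-labelled libraries at 48 h, and 643, 634, 623 and 648 CPM in WT and 703, 707, 731 and 719 CPM in KO-labelled libraries at 72 h. The groups were apart at both stages and changed order (0.61, SE 0.054, edgeR adjusted p = 1.16e-08). Kirrel, a cell recognition molecule of the immunoglobulin family, had 16.4, 16.5 and 18.2 CPM against 7.91 and 6.87 CPM at 48 h and overlapping levels of 2.45 to 3.58 CPM at 72 h (0.90, SE 0.15, edgeR adjusted p = 0.000158).

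**Figure D5:**
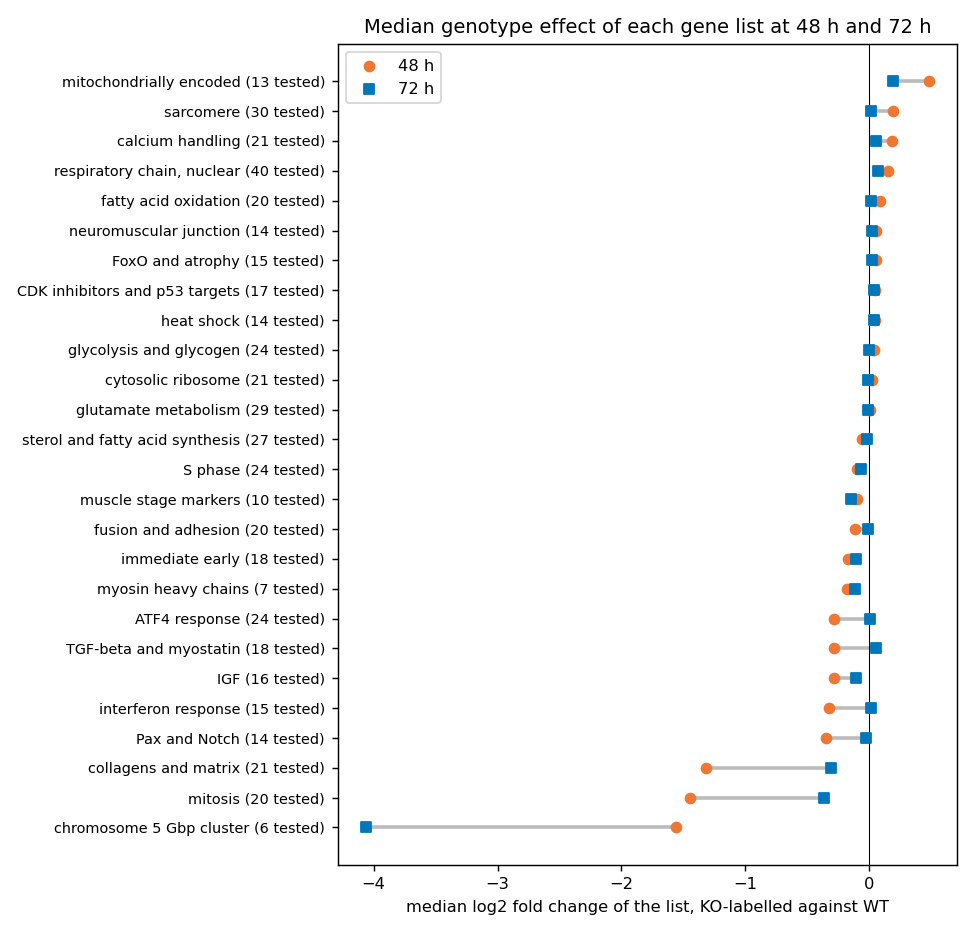
Median log2 fold change of KO-labelled against WT over the tested genes of each list (x axis), at 48 h (circles) and 72 h (squares), with the lists on the y axis ordered by their 48 h value. Mitosis goes from -1.44 to -0.37 and collagens and matrix from -1.31 to -0.31, whereas the chromosome 5 Gbp cluster goes from -1.56 to -4.06.

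ATF4 is the transcription factor that answers amino acid shortage, and calls among its response genes were positive. Of 24, 11 (45.8%, against 8.27% of all genes) were higher and none lower (median 0.23): Trib3, Chac1, Asns, Psat1, Phgdh, Psph, Shmt2, Mthfd2, Vldlr, Ddit4 and Gdf15. At 48 h 13 of the list were lower and 1 higher in KO-labelled libraries, beside 14.1% and 11% of all genes. At 72 h 6 were higher and 6 lower, beside 6.32% and 6.72% of all genes. Mthfd2, a mitochondrial enzyme of folate metabolism (chr6:83305691-83325908, minus strand), had 64.9, 65.3 and 68.2 CPM in WT and 51.1 and 54.5 CPM in KO-labelled libraries at 48 h, and 66.4, 71.3, 70.8 and 73.8 CPM in WT and 94.6, 93.6, 98.2 and 89.0 CPM in KO-labelled libraries at 72 h. The groups were apart at both stages in opposite order (0.74, SE 0.063, edgeR adjusted p = 7.52e-09). Phgdh and Psph, enzymes of serine synthesis, gave 0.56 and 0.71, and Vldlr, a lipoprotein receptor, gave 0.98. Without KO-labelled differentiated replicate 1 the 11 became 6.

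The glutamate list, the pathway around the enzyme named in the labels, had 29 genes tested, of which 8 were higher and 3 lower (37.9%, against 14.8% of all genes), with a median of 0.05 that was -0.04 without KO-labelled differentiated replicate 1. The higher ones included Psat1, Asns, Aldh18a1, Oat, Gclc, Gss and the glutamine transporter Slc38a1. Aldh18a1, which starts proline synthesis from glutamate, had 44.8, 46.8 and 49.3 CPM in WT and 33.5 and 37.4 CPM in KO-labelled libraries at 48 h, and 50.5, 51.6, 50.1 and 48.0 CPM in WT and 57.8, 58.4, 54.2 and 55.9 CPM in KO-labelled libraries at 72 h. Again the groups were apart at both stages in opposite order (0.59, SE 0.068, edgeR adjusted p = 9.98e-07), a call lost under the length offset. Oat, which joins ornithine to glutamate semialdehyde, had 36.3 to 43.7 CPM against 25.7 and 27.1 CPM at 48 h and overlapping levels of 27.6 to 35.1 CPM and 31.7 to 34.8 CPM at 72 h (0.61, SE 0.10, edgeR adjusted p = 0.000168). The lower ones were the aminotransferase Got1 (-0.31), Aldh4a1 of proline breakdown and the malate dehydrogenase Mdh1. Under the length offset 4 were higher and none lower, and 1 was lower with library size alone or without KO-labelled fused replicate 2.

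Of 24 glycolysis and glycogen genes, 10 were lower and 2 higher (median -0.14), beside 6.53% and 8.27% of all genes. The lower ones included Pgam2, the muscle phosphoglycerate mutase (-0.43), Pygm, the muscle glycogen phosphorylase (-0.35), Pfkl (-0.37) and Pfkm (-0.27), phosphofructokinase subunits, and the higher ones were Pfkp and Pgam1. At 48 h 8 were higher and 1 lower (11% and 14.1% of all genes), and at 72 h 1 was higher and 6 were lower (6.32% and 6.72%). The 10 became 4 with library size alone or without KO-labelled differentiated replicate 2, 5 under the length offset, and 6 without WT differentiated replicate 2 or WT fused replicate 2. Without KO-labelled differentiated replicate 2 the 8 higher genes of 48 h became 2.

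Of 40 nuclear genes of the respiratory chain, 6 were lower and none higher (15.0%, median -0.09), beside 6.53% and 8.27% of all genes. Called in either direction were 14.8% of all genes. The 6 were Ndufs1, Ndufs4, Sdha, Cox6a2, Cox7b and Cox8b. The 6 became 2 under the length offset, 3 with library size alone, with the 13 libraries alone, or without WT fused replicate 2, KO-labelled differentiated replicate 2 or KO-labelled fused replicate 2, and 4 under 6 other alternatives; Ndufs4 lost its call under 10 of 22. At 48 h 24 of the 40 were higher in KO-labelled libraries, which became 10 with library size alone, 14 without KO-labelled differentiated replicate 1 and 13 without KO-labelled differentiated replicate 2. Over all genes 11% were higher at 48 h. Of the 13 genes encoded by mitochondrial DNA, 6 were lower: mt-Nd1, mt-Nd2, mt-Nd4, mt-Nd4l, mt-Nd5 and mt-Co1 (median -0.29, against 6.53% of all genes). In KO-labelled libraries 12 of the 13 were higher at 48 h and 5 at 72 h, beside 11% and 6.32% of all genes. mt-Nd4, a subunit of complex I, had 3409, 4203 and 3871 CPM in WT and 5159 and 5784 CPM in KO-labelled libraries at 48 h, and 2477 to 3001 CPM in WT and 2427 to 2878 CPM in KO-labelled libraries at 72 h. The groups were apart at 48 h and overlapped at 72 h (-0.49, SE 0.11, edgeR adjusted p = 0.00371). The 6 mitochondrial calls became 3 without KO-labelled differentiated replicate 2. The share of all counts from mitochondrial genes, which can also move with RNA quality, moved with this list: at 48 h WT libraries had 4.00 to 4.77% and KO-labelled ones 5.50 to 5.91%, and at 72 h they had 3.02 to 3.55% and 2.98 to 3.51%. Its part in the result was not tested.

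Among lipid genes, 5 of 27 in sterol and fatty acid synthesis were higher (18.5%, against 14.8% of all genes called in either direction), with a median of 0.05 that was -0.01 without KO-labelled differentiated replicate 1. They were Acaca and Fasn, which make fatty acids, Sqle and Msmo1 of the sterol pathway, and Stard4, a sterol carrier. Acaca had 45.3, 42.8 and 45.7 CPM in WT and 31.5 and 27.9 CPM in KO-labelled libraries at 48 h and overlapping levels of 29.2 to 32.4 CPM and 27.2 to 30.8 CPM at 72 h (0.48, SE 0.078, edgeR adjusted p = 0.000108). The 5 became 1 under the length offset and 3 without KO-labelled differentiated replicate 1. Of 20 fatty acid oxidation genes 2 were called, a share below that of all genes. Pdk4, a kinase that restrains glucose oxidation, was higher (0.30), a call lost under the length offset and without KO-labelled differentiated replicate 1, and Fabp3, the muscle fatty acid-binding protein, lower (-0.40). Fabp3 had 43.3, 41.1 and 42.1 CPM in WT and 58.9 and 57.3 CPM in KO-labelled libraries at 48 h, and 92.1 to 102 CPM and 96.4 to 104 CPM at 72 h, where the groups overlapped.

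Of 15 FoxO and atrophy genes, Foxo1 (0.38) and Gabarapl1 (0.36) were higher, and Trim63, the muscle ubiquitin ligase (-0.37), and Bnip3 (-0.23) lower (26.7% of the list, against 14.8% of all genes). Bnip3 lost its call under 7 of 22 alternatives and Gabarapl1 under the length offset. Under that offset 1 of the 15 was higher and 1 lower, and with length and GC trends removed 2 were higher and 4 lower. Of 18 immediate early genes, Dusp1 (0.45) and Jun (0.30) were higher and Zfp36 (-0.41) and Egr3 (-0.86) lower (22.2%). Neither lower call was left under the length offset or without KO-labelled differentiated replicate 2, Egr3 was also lost without replicate 1 of either genotype at 48 h, Jun was lost without KO-labelled differentiated replicate 1, and Dusp1 under the offset. Of 14 heat shock genes, Hspb8 (0.37), Hspa1b (0.60), whose reads may be shared with its near-identical neighbour Hspa1a, and Dnajb1 (0.27) were higher and Hspb7 (-0.31) lower (28.6%). The 3 became 1 under the length offset or without KO-labelled differentiated replicate 1, and Hspb7 was lost without KO-labelled differentiated replicate 2. None of 21 cytosolic ribosome genes was called in edgeR's test (0.0%), 2 had an unadjusted p under 0.05, and DESeq2 called 1 higher and 1 lower.

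Depth over the 13 libraries ran from 16168131 to 29896572 estimated counts, with 19875856 and 20878532 in the 2 KO-labelled libraries of 48 h, so that group rests on the fewest libraries. Genes with at least 1 count numbered 19495 to 20706 per library at 48 h and 17736 to 18913 at 72 h. Ribosomal protein genes took 2.71 to 3.25% of counts. Replicates of 1 group differed by more than sampling noise: the chi-square statistic of a pair, divided by its degrees of freedom, was 2.07 to 7.06. Each library was counted on its own. The statistic cannot tell separate animals from separate preparations of 1 culture.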

How the data were processed

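Per the labels' protocols, a Qiagen RNeasy micro kit was used for extraction and Illumina TruSeq mRNA for library preparation. The submitters' processing notes name bcl2fastq 2.20, fastp 0.20.0, kallisto 0.46.1, edgeR 3.36 and the build GRCm38.p6, without their roles. The authors deposited, per the file headers, an estimated count, a TPM value and an effective length for each of 121843 transcripts in each library. kallisto divides a read that matches several transcripts among them, so values of paralogs and overlapping genes are uncertain. The deposited TPM column entered no test. Of the transcripts, 121018 matched GENCODE M21 (GRCm38), and the 825 others, with 0.255 to 0.507% of counts, were left out.

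Estimated counts were summed over transcripts to 35598 genes and rounded. edgeR 4.0.16 (R 4.3.3, limma 3.58.1) fitted its quasi-likelihood model to all 19 libraries, with 1 coefficient for each of 6 groups, filterByExpr and TMM scaling, and tested contrasts with Benjamini-Hochberg adjustment over 15123 genes, called at an adjusted p under 0.05. Marker sums are CPM of each library's total, without TMM. Alternatives were DESeq2 1.42.0, other scalings, count filters and libraries in the fit, an effective-length offset, removal of length and GC trends, a replicate block and leaving out each library.

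The genes named were eligible if called, protein-coding and at a mean of at least 5 CPM in 1 of the 4 groups. They were the 8 largest stage differences in each direction, the 3 smallest adjusted p, 3 genes for each order of opposite effects, 3 in each direction with a late effect, Glud1, the 10 stage markers, and up to 4 called members of each list by adjusted p. Fn1, Col3a1, Gbp11, Sln, Tgfbr1, Lrrc8b and the marker and neighbour genes with values were added after their values were seen. The comparison, its members and the lists were chosen with earlier results of these data known. Some results of single genes are not reported here.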

Additional observations from a re-analysis of the deposited data

Results flagged for a closer look

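The genotype effect differed between 48 h and 72 h by the test of the difference itself for 2238 genes. The values of those named stand in the report.

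In 20 of 226 groups of 4 fused myotube libraries checked over the named genes, 1 library lay far from the other 3. The gap to its nearest neighbour exceeded Dixon's critical share of the range, which chance passes in about 1 in 20 groups. WT fused replicate 4 was the highest for Gbp8 (22.9 CPM), Gbp4 (45.7 CPM) and Gbp9 (306 CPM), a direction that widens the gap to KO-labelled libraries, and the calls of these 3 genes held without it. It also stood apart for Atp2a1 (4863 CPM), Pfkm (1318 CPM) and Fasn (147 CPM). WT fused replicate 2 stood apart for Kirrel (2.47 CPM) and Myh7b (16.1 CPM), WT fused replicate 1 for Stac3 (246 CPM) and WT fused replicate 3 for Chrng (1391 CPM).

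Among KO-labelled fused libraries, replicate 1 stood apart for mt-Nd4 (2427 CPM), mt-Co1 (10588 CPM), Jun (129 CPM) and Hspb7 (292 CPM). Replicate 2 stood apart for Igfbp3 (73.2 CPM), replicate 3 for Glud1 (139 CPM) and Col4a2 (31.8 CPM), and replicate 4 for Myoz2 (173.7 CPM), Slc38a1 (81.7 CPM) and Bnip3 (72.5 CPM). These groups share libraries, so the values are not independent of each other.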

How the results depend on the processing

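The count of stage differences stayed within 1.5 times of 2238 under all alternatives that changed no library except the offset for effective length, which gave 981. That offset also lowered the genotype effect at 48 h from 3810 to 2149 genes and at 72 h from 1972 to 823. Leaving out 1 library at a time gave 1543 to 2237 for the stage difference, 2594 to 3899 at 48 h, 1384 to 2129 at 72 h, 10836 to 11549 for the WT change over time and 9548 to 10639 for the KO-labelled change. The lowest counts of the stage difference were 1568 and 1543, without KO-labelled differentiated replicate 1 and 2. That group has 2 libraries, and with 1 left it is assumed to vary like the other groups. With library size alone 75% of the called stage differences were higher, against 55.9% with TMM, and the median of all genes moved from -0.00 to 0.05. At 48 h the share higher was 27.0% against 43.9%. Of the 106 named genes called, 66 kept their call under all 22 alternatives and none changed direction. The offset ended 31 of these calls, and leaving out KO-labelled differentiated replicate 1 or 2 ended 17 or 15. Same-numbered libraries did not deviate together (r from -0.053 to 0.042), so the numbers were not taken as pairs. A fit with a replicate block called 2148 stage differences, 3667 genes at 48 h, 1858 at 72 h, 11174 in the WT change and 10430 in the KO-labelled change, and in it the S phase list held 2 higher and 2 lower members in place of 4 and 1, and myosin heavy chains 1 and 3 in place of 1 and 1. At 72 h depth limits Cxcl12, Gbp11 and Mki67, and also Top2a (2 to 12 counts per library) and Stmn2 (7 to 15), which held few counts.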
